A study of Saccharomyces cerevisiae with 18 samples.

Results

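The messenger RNAs of 10 genes for zinc transport and zinc homeostasis were followed in aging cultures of budding yeast, sampled on day 1 and on day 4. The genes are ZRT1, ZRT2, ZRT3, ZAP1, ZPS1, ZRC1, IZH1, IZH2, IZH3 and IZH4. They were taken by systematic name from the deposited count table, in which all 10 of the names were found among 6837 identifiers, and all 10 entered the tests on 6320 genes that passed the filter on low counts. The list was drawn up with earlier results of these counts in view, so the p values below describe the fit across all genes and are not independent evidence that zinc genes respond.

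The RNA was polyadenylated RNA from cultures grown in the rich medium YPD, harvested at day 1 or day 4, with no treatment named in the labels. All 6 groups share the haploid laboratory strain BY4742, and they hold unmutated cells (wild type, WT), cells with a deletion of SET2 (set2Δ) and cells with a deletion of BRE1 (bre1Δ), each at both days with 3 libraries. Set2 methylates lysine K36 of histone H3, and Bre1 is the ligase that attaches ubiquitin to histone H2B. In chronological aging, the time is counted over which cells that no longer divide stay alive. The labels do not say how many clones of a deletion strain were used, or whether the 3 libraries of a group came from separate cultures. The p values may therefore measure only the spread between these libraries.

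Library totals lay between 8038470 counts (set2Δ at day 4, replicate 1) and 29514490 counts (bre1Δ at day 4, replicate 3). SET2 was read 20 times in the set2Δ libraries of day 1 together and 15 times in those of day 4, against 1044 and 1770 in WT. BRE1 was read 0 and 2 times in bre1Δ, against 3472 and 7885 in WT. BY4742 is of mating type alpha: the 3 alpha markers MF(ALPHA)1, SAG1 and STE3 summed to 153 to 1899 CPM (counts scaled to the library total), and the 4 markers of mating type a, STE2, STE6, BAR1 and MFA1, to 76 to 143 CPM. The alpha sum was highest in set2Δ at day 1, at 1781 to 1899 CPM. It was lowest in bre1Δ at day 4, at 153 to 168 CPM, where the a markers summed to 78.8 to 81.0 CPM.

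Yeast cells take up zinc through Zrt1, a transporter of high affinity in the plasma membrane, and Zrt2, one of low affinity. The vacuole is the zinc store: Zrc1 loads it and Zrt3 empties it. Zap1 is the transcription factor that senses low zinc and activates, among others, ZRT1, ZRT3, ZRC1, ZPS1, IZH1 and its own gene through a short palindromic DNA motif, the zinc-responsive element. ZPS1 encodes a cell wall protein that is induced when zinc is scarce. The IZH genes encode membrane proteins of the family of progestin and adipoQ receptors and are named for their implication in zinc homeostasis.

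The promoters of the members differed in how many matches to the Zap1 motif they hold. The motif searched, from general knowledge of Zap1, was the half-site ACCTT, any 1 base, and the reverse half-site AAGGT. It is its own reverse complement, so that 1 scan covers both strands, and no other motif was searched. In the window from 250 bases before to 50 bases after the start of the coding sequence, 5 of 6020 protein-coding genes held an exact match (0.0831%), and ZRT1 was the 1 member among them. With 1 difference allowed, 71 genes held a match (1.18%), among them the 4 members ZRT1, ZRT3, ZAP1 and ZRC1. Over 500 bases before the start, a window chosen after the shorter one had been searched, the exact match was found in 9 of 6019 genes (0.15%) and a match with at most 1 difference in 118 (1.96%). The 7 members with such a match were ZRT1, ZRT2, ZRT3, ZAP1, ZPS1, ZRC1 and IZH1. The letters of the motif were not found in the windows of IZH2, IZH3 and IZH4 with as few differences, which says nothing about binding.

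The matches are shown because this motif is where Zap1 is known to bind its targets. Each is printed 5′ to 3′ on the strand of its gene with 10 bases on either side, from RefSeq's R64 assembly, the build named sacCer3 in the submitters' processing notes. None of the 10 sites lies within an annotated gene. Capitals mark the 11 positions of the motif.

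ZRT1, exact, chrVII:20774-20784, plus strand: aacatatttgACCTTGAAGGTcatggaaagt
ZRT1, distal, chrVII:20659-20669, plus strand: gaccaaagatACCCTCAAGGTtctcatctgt
ZRT2, distal, chrXII:404363-404373, minus strand: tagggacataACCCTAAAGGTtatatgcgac
ZRT2, proximal, chrXII:404314-404324, minus strand: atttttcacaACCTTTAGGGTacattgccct
ZRT3, chrXI:118638-118648, plus strand: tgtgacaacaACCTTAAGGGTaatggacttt
ZAP1, chrX:333207-333217, minus strand: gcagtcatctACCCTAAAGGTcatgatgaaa
ZPS1, distal, chrXV:34329-34339, plus strand: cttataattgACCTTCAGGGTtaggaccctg
ZPS1, proximal, chrXV:34344-34354, plus strand: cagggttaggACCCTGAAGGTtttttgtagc
ZRC1, chrXIII:756330-756340, minus strand: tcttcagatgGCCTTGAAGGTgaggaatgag
IZH1, chrIV:1434507-1434517, plus strand: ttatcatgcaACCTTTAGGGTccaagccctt

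Differences are given with the motif's base first, the position counted from 1 at the 5′ end, and then the promoter's base. The distal site of ZRT1, the distal site of ZRT2, the site of ZAP1 and the proximal site of ZPS1 differ by T4C. The proximal site of ZRT2 and the sites of ZRT3 and IZH1 differ by A8G, as does the distal site of ZPS1, and the site of ZRC1 differs by A1G. The exact match of ZRT1 lies 204 to 194 bases before the start, and the single match of ZAP1 144 to 134 bases before its own. Both promoter windows follow, since ZRT1 had the widest range of levels among the members and ZAP1 encodes the activator. Capitals again mark the match.

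ZRT1, chrVII:20728-21027, plus strand: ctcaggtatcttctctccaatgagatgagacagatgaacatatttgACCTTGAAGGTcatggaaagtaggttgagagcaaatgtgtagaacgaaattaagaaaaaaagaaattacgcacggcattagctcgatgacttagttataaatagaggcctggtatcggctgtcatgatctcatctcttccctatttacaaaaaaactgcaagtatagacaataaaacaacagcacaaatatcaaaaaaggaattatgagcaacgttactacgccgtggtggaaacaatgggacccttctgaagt
ZAP1, chrX:333024-333323, minus strand: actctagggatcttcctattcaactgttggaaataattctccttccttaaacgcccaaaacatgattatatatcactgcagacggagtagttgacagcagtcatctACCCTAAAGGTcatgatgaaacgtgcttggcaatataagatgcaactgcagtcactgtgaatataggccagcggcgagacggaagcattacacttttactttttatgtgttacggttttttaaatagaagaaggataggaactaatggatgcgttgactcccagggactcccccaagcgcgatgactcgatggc

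**Figure D1:**
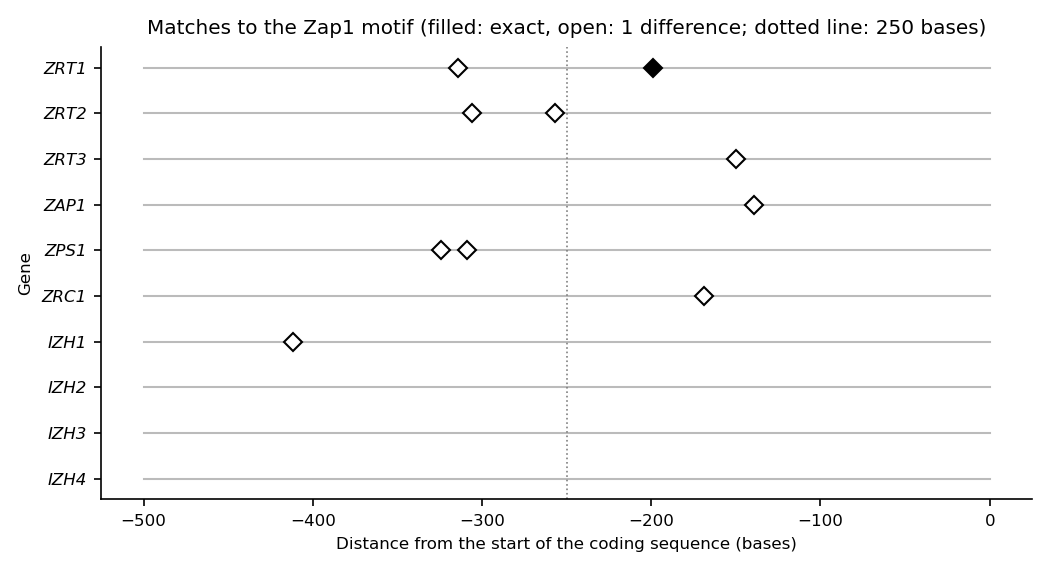
Positions of matches to the Zap1 motif in the 500 bases before the coding sequence of each member, in bases from its start. The filled diamond is the exact match of ZRT1, open diamonds are matches with 1 difference, and 7 of the 10 genes carry a match.

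ZRT1, the gene of the high-affinity zinc importer (YGL255W, chromosome VII, 20978 to 22108, plus strand), rose in every strain between the days, and by far more in WT than in either deletion. Levels are counts scaled to library size with TMM factors (CPM), and changes are log2 fold changes ± SE from edgeR's quasi-likelihood test, adjusted by Benjamini-Hochberg over 6320 genes. The WT libraries held 29.5, 30.8 and 34.7 CPM of ZRT1 at day 1 and 569, 585 and 577 CPM at day 4. In set2Δ the values were 31.7, 35.1 and 34.8 CPM at day 1 and 110.0, 103 and 103 CPM at day 4. The bre1Δ libraries held 25.3, 27.2 and 28.4 CPM at day 1 and 63.3, 59.4 and 64.5 CPM at day 4. The libraries of day 4 lay above those of day 1 in each strain without overlap, and those of WT at day 4 stood far above all others. The rise was 18.2-fold in WT (4.19 ± 0.06, edgeR, adjusted p = 1.15e-21), 3.09-fold in set2Δ (1.63 ± 0.06, edgeR, adjusted p = 3.06e-15) and 2.32-fold in bre1Δ (1.21 ± 0.06, edgeR, adjusted p = 3.21e-13). Among 6320 genes the rise in WT was the 28th largest. In a bulk sample, fewer cells that make an RNA and less of it per cell cannot be told apart.

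At day 4, ZRT1 was 5.5-fold lower in set2Δ than in WT (-2.46 ± 0.06, edgeR, adjusted p = 8.82e-19) and 9.22-fold lower in bre1Δ (-3.21 ± 0.06, edgeR, adjusted p = 1.58e-20). At day 1 the set2Δ value was 0.10 ± 0.06 against WT (edgeR, adjusted p = 0.167), and without replicate 3 of WT at day 1 it passed the threshold (0.17, edgeR, adjusted p = 0.0284), as it did under scaling by library size only (0.46) and by upper quartile (0.21). In bre1Δ it was lower at day 1 by a little (-0.23 ± 0.07, edgeR, adjusted p = 0.00388), a direction that flipped under scaling by library size only (0.0628). The order of the 6 groups was WT at day 4, set2Δ at day 4, bre1Δ at day 4, set2Δ at day 1, WT at day 1 and bre1Δ at day 1, and of neighbours in it only set2Δ and WT at day 1 overlapped. The highest group mean was 21.4 times the lowest, the widest range among the 10 genes.

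ZRT2, the low-affinity importer (YLR130C, chromosome XII, 402794 to 404062, minus strand), moved little. WT held 121, 111 and 116 CPM at day 1 and 138, 139 and 144 CPM at day 4. The set2Δ libraries held 83.2, 95.4 and 78.6 CPM and 84.9, 90.0 and 89.1 CPM at these days, and those of bre1Δ 92.3, 102 and 104 CPM and 119, 107 and 125 CPM. At each day both deletions lay below WT without overlap, and the days overlapped in set2Δ but not in WT or bre1Δ. ZRT2 rose in WT (0.27 ± 0.07, edgeR, adjusted p = 0.000983) and in bre1Δ (0.24 ± 0.07, adjusted p = 0.00347), and its value in set2Δ was 0.04 ± 0.07 (edgeR, adjusted p = 0.63). It was lower in set2Δ than in WT at day 4 (-0.67 ± 0.07, edgeR, adjusted p = 1.4e-08) and at day 1 (-0.44 ± 0.07, edgeR, adjusted p = 6.49e-06), the latter past the threshold no longer under scaling by library size only (-0.0703, adjusted p = 0.341). In bre1Δ it was lower at both days (-0.22 ± 0.07 and -0.26 ± 0.07), but under scaling by library size only the values turned to 0.0713 and 0.0066, and by upper quartile that of day 4 was -0.12 (edgeR, adjusted p = 0.093).

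**Figure D2:**
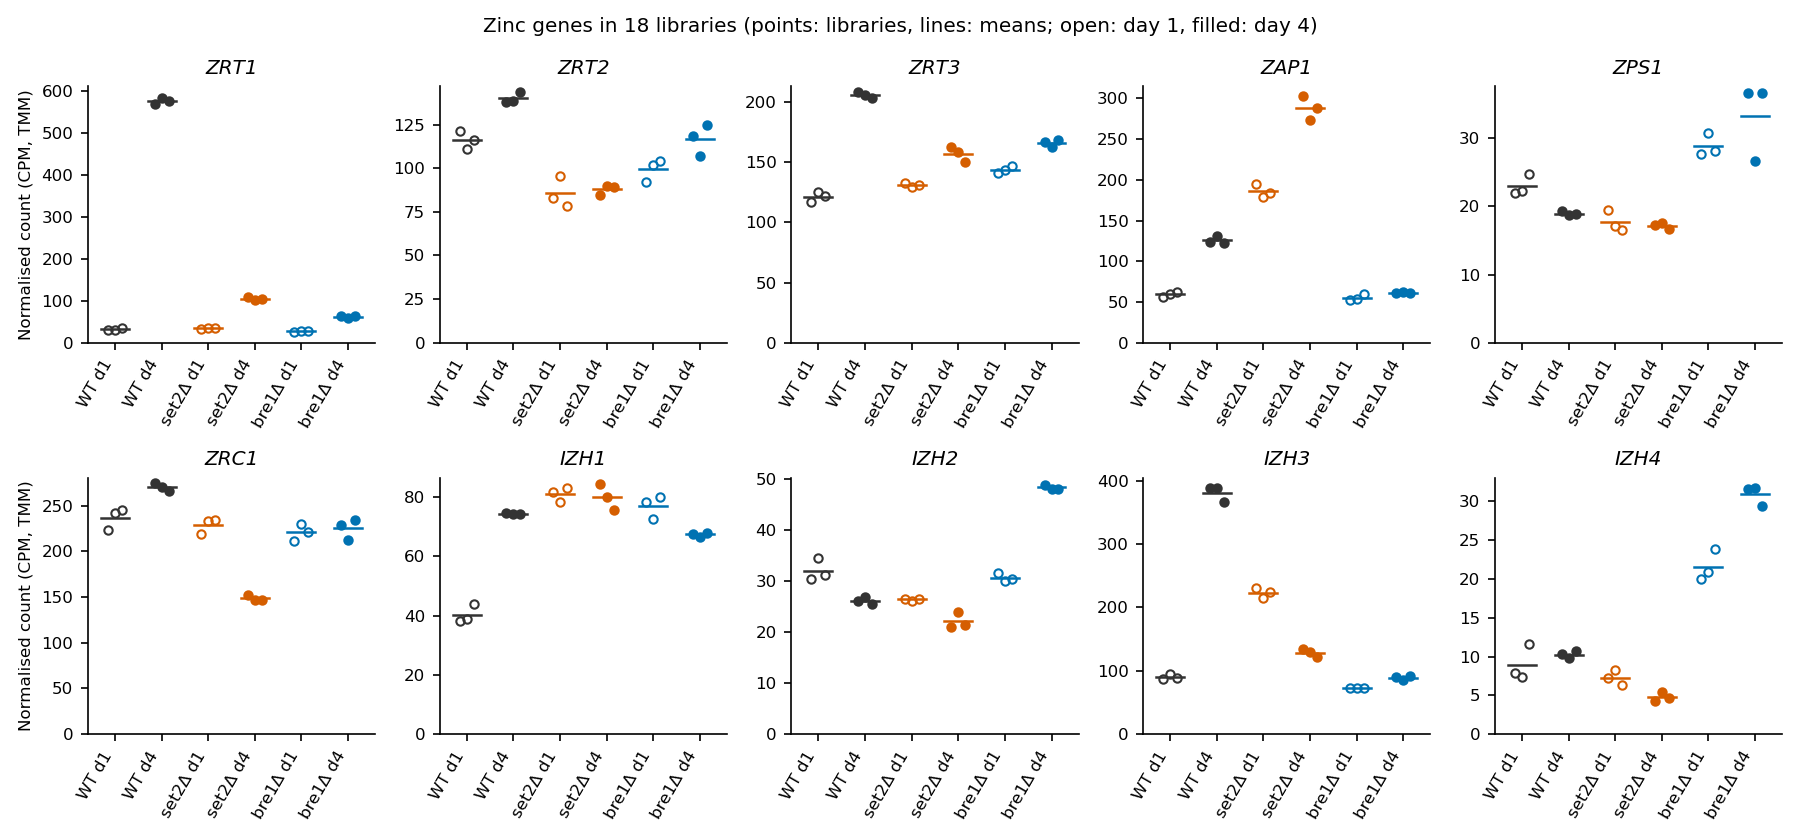
Normalised counts (CPM after TMM scaling) of the 10 zinc genes in each of 18 libraries, by strain and day (d1, d4), with lines at the group means. ZRT1 stood at 569 to 585 CPM in WT at day 4 and at most 110.0 CPM in any other library, while ZAP1 was highest in set2Δ and IZH4 in bre1Δ.

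ZAP1, the gene of the zinc-sensing activator (YJL056C, chromosome X, 330431 to 333073, minus strand), was highest in set2Δ at both days, an order unlike that of ZRT1. WT held 56.4, 59.9 and 62.8 CPM at day 1 and 124, 131 and 122 CPM at day 4. The set2Δ libraries held 195, 179 and 184 CPM at day 1 and 303, 274 and 288 CPM at day 4. In bre1Δ the values were 52.2, 53 and 59.6 CPM at day 1 and 60.9, 62.1 and 61 CPM at day 4. Every set2Δ library lay above every library of WT and bre1Δ, and bre1Δ at day 4 overlapped WT at day 1. At day 1 ZAP1 was 3.11-fold higher in set2Δ than in WT (1.64 ± 0.06, edgeR, adjusted p = 9.69e-16), and at day 4 2.29-fold higher (1.19 ± 0.06, edgeR, adjusted p = 3.55e-14). In bre1Δ it was lower at day 4 (-1.04 ± 0.06, edgeR, adjusted p = 3.26e-13). At day 1 its value there was -0.12 ± 0.06 (edgeR, adjusted p = 0.0755), which passed the threshold without replicate 1 of WT (adjusted p = 0.0362) or replicate 3 of bre1Δ (adjusted p = 0.0135) at that day, and turned to 0.17 under scaling by library size only.

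Between the days ZAP1 rose in WT (1.07 ± 0.06, edgeR, adjusted p = 6.12e-13) and in set2Δ (0.63 ± 0.05, edgeR, adjusted p = 1.72e-09). In bre1Δ it rose slightly (0.16 ± 0.06, edgeR, adjusted p = 0.0215), and this call rests on single libraries. Without replicate 1 or 2 of day 1 the adjusted p of edgeR was 0.0923 and 0.0529, without replicate 2 of day 4 it was 0.0515, and under scaling by upper quartile it was 0.0566. ZAP1 and ZRT1 did not follow each other across the groups: set2Δ at day 1 had 186 ± 8.35 CPM of ZAP1 (SD, n = 3) and 33.9 ± 1.87 CPM of ZRT1, while WT at day 4 had less ZAP1, 126 ± 4.93 CPM, and more ZRT1, 577 ± 7.96 CPM. Counts over a whole gene do not show where a transcript starts, so full-length ZAP1 mRNA and transcripts from within the gene cannot be told apart here, nor can antisense transcripts, since the strand setting of the counting is not given.

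**Figure D3:**
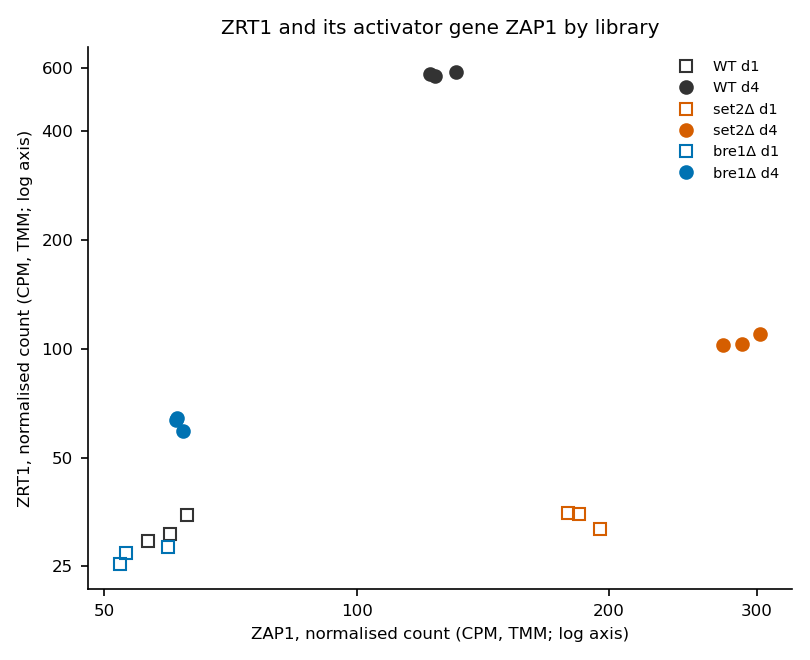
ZRT1 against ZAP1 in the 18 libraries, both as CPM after TMM scaling on log axes, with squares for day 1 and circles for day 4. The set2Δ libraries lie at the right with 179 to 303 CPM of ZAP1, and the WT libraries of day 4 at the top with at least 569 CPM of ZRT1.

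The genes of the vacuolar zinc transporters changed less. ZRT3, which releases stored zinc (YKL175W, chromosome XI, 118793 to 120304, plus strand), was at 117, 126 and 122 CPM in WT at day 1 and 209, 206 and 203 CPM at day 4. In set2Δ it was at 133, 129.6 and 131 CPM and then 162, 159 and 149.9 CPM, and in bre1Δ at 141, 143 and 147 CPM and then 167, 163 and 168 CPM. The days did not overlap in any strain, and WT at day 4 was the highest group. ZRT3 rose in WT (0.76 ± 0.04, edgeR, adjusted p = 1.1e-12), in set2Δ (0.26 ± 0.04, adjusted p = 1.82e-05) and in bre1Δ (0.21 ± 0.04, adjusted p = 0.000188). At day 4 it was lower in set2Δ (-0.39 ± 0.04, edgeR, adjusted p = 3.53e-08) and in bre1Δ (-0.31 ± 0.04, adjusted p = 6.29e-07) than in WT, the latter not past the threshold under scaling by library size only (-0.0451, adjusted p = 0.332). At day 1 it was higher in bre1Δ (0.24 ± 0.04, edgeR, adjusted p = 3.95e-05) and in set2Δ (0.11 ± 0.04, adjusted p = 0.0285). The call in set2Δ was lost when replicate 1 of WT was left out (edgeR, adjusted p = 0.125), and likewise replicate 1 (adjusted p = 0.0837) or 3 (0.0536) of set2Δ.

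ZRC1, the transporter that stores zinc in the vacuole (YMR243C, chromosome XIII, 754838 to 756166, minus strand), lay between 212 and 275 CPM in 5 groups and was low in set2Δ at day 4. WT held 224, 242 and 245 CPM at day 1 and 275, 270.1 and 267 CPM at day 4. In set2Δ the values fell from 219, 233 and 234 CPM to 152, 147 and 147 CPM, and in bre1Δ they were 212, 229.8 and 221 CPM and 228, 212 and 235 CPM. The 3 libraries of set2Δ at day 4 lay below all the others. ZRC1 fell between the days in set2Δ (-0.62 ± 0.05, edgeR, adjusted p = 7.9e-10) and rose a little in WT (0.19 ± 0.05, adjusted p = 0.00178), a rise not past the threshold under scaling by upper quartile (0.0681, adjusted p = 0.228). Its value in bre1Δ was 0.03 ± 0.05 (edgeR, adjusted p = 0.629). At day 4 it was lower than WT in set2Δ (-0.86 ± 0.05, edgeR, adjusted p = 1.93e-12) and in bre1Δ (-0.26 ± 0.05, adjusted p = 5.21e-05), the latter at 0.00367 under scaling by library size only.

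ZPS1, a cell wall protein gene induced by low zinc (YOL154W, chromosome XV, 34658 to 35407, plus strand), did not share the rise of ZRT1. WT held 22, 22.2 and 24.7 CPM at day 1 and 19.3, 18.7 and 18.8 CPM at day 4, and set2Δ held 19.5, 17.1 and 16.5 CPM and 17.3, 17.5 and 16.7 CPM. The bre1Δ libraries were the highest, with 27.7, 30.8 and 28.2 CPM at day 1 and 36.6, 26.7 and 36.7 CPM at day 4, where replicate 2 lay below the day 1 libraries. ZPS1 fell in WT (-0.28 ± 0.10, edgeR, adjusted p = 0.0196), a call lost without replicate 3 of day 1 (-0.22, adjusted p = 0.0835). It was higher in bre1Δ than in WT at day 4 (0.82 ± 0.10, edgeR, adjusted p = 1.16e-07) and at day 1 (0.33 ± 0.10, adjusted p = 0.00594, and 0.0503 without replicate 2 of bre1Δ). Between the days its value in bre1Δ was 0.21 ± 0.10 (edgeR, adjusted p = 0.0518), which passed the threshold without replicate 2 of day 1 (adjusted p = 0.0273) or of day 4 (0.000822), and in set2Δ it was -0.04 ± 0.11 (adjusted p = 0.753). Against WT, set2Δ was lower at day 1 (-0.38 ± 0.11, edgeR, adjusted p = 0.00272), but not under scaling by library size only (-0.0141, adjusted p = 0.902).

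The 4 IZH genes each had an order of groups of their own. IZH3 (YLR023C, chromosome XII, 185498 to 187129, minus strand) was the member with the second largest rise in WT. WT held 87.1, 94.2 and 89.1 CPM at day 1 and 388, 389 and 366 CPM at day 4. In set2Δ it was at 230.0, 214 and 225 CPM at day 1 and 134, 129 and 123 CPM at day 4, and in bre1Δ at 72.2, 73.1 and 73.2 CPM and 90.8, 84.9 and 92.2 CPM. The days did not overlap in any strain, with day 4 above day 1 in WT and bre1Δ and below it in set2Δ. IZH3 rose 4.22-fold in WT (2.08 ± 0.05, edgeR, adjusted p = 1.23e-18) and slightly in bre1Δ (0.30 ± 0.05, adjusted p = 2.04e-05), and fell in set2Δ (-0.80 ± 0.05, adjusted p = 8.25e-12). At day 1 it was higher in set2Δ than in WT (1.31 ± 0.05, edgeR, adjusted p = 2.7e-15), and at day 4 it was lower in set2Δ (-1.57 ± 0.05, adjusted p = 6.73e-17) and in bre1Δ (-2.09 ± 0.05, adjusted p = 5.2e-19). The small deficit of bre1Δ at day 1 (-0.31 ± 0.05, edgeR, adjusted p = 1.58e-05) was not past the threshold under scaling by library size only (-0.0145, adjusted p = 0.801).

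IZH1 (YDR492W, chromosome IV, 1434924 to 1435874, plus strand) was low in 1 group, WT at day 1. The values there were 38.2, 38.8 and 44.1 CPM, against 74.7, 74.3 and 74.2 CPM in WT at day 4. The set2Δ libraries held 81.7, 78.4 and 82.9 CPM at day 1 and 84.3, 80.0 and 75.6 CPM at day 4, and those of bre1Δ 78.5, 72.8 and 80.0 CPM and 67.6, 66.7 and 68 CPM. No library of another group came down to the level of WT at day 1. IZH1 rose in WT (0.88 ± 0.06, edgeR, adjusted p = 1.56e-11), fell a little in bre1Δ (-0.19 ± 0.06, adjusted p = 0.00444) and was at -0.02 ± 0.06 in set2Δ (adjusted p = 0.744), a value that passed the threshold by upper quartile (-0.16, adjusted p = 0.0104). At day 1 it was higher than in WT in set2Δ (1.00 ± 0.06, edgeR, adjusted p = 2.38e-12) and in bre1Δ (0.93 ± 0.06, adjusted p = 1.65e-11), and the difference between the deletions was -0.07 ± 0.06 (bre1Δ minus set2Δ, adjusted p = 0.229), past the threshold under scaling by library size only (-0.14, 0.0236) or upper quartile (-0.14, 0.0255). At day 4 the set2Δ value against WT depended on the scaling. It was 0.10 ± 0.06 as fitted (edgeR, adjusted p = 0.11), 0.36 under scaling by library size only (adjusted p = 7.54e-06), 0.19 by upper quartile (0.00331), 0.13 by median of ratios (0.0458) and 0.21 with only the libraries compared (0.0014). Without replicate 3 of set2Δ its adjusted p in edgeR was 0.0482. The value of bre1Δ at day 4, -0.14 ± 0.06 (edgeR, adjusted p = 0.0238), turned to 0.13 under scaling by library size only (adjusted p = 0.0416), past the threshold in the other direction. Leaving out replicate 1 of WT gave it an adjusted p of 0.0519 in edgeR, and leaving out replicate 1 or 2 of bre1Δ gave 0.0533 or 0.0618.

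IZH2 and IZH4 were highest in bre1Δ at day 4. IZH2, whose product is also known as the receptor of the plant protein osmotin (YOL002C, chromosome XV, 323411 to 324364, minus strand), held 30.4, 34.4 and 31.2 CPM in WT at day 1 and 26, 26.8 and 25.4 CPM at day 4, with 26.6, 26.2 and 26.5 CPM and 21.1, 23.9 and 21.3 CPM in set2Δ. In bre1Δ it stood at 31.5, 30.1 and 30.5 CPM at day 1 and 48.9, 48.1 and 48.2 CPM at day 4, and the last 3 values lay above all other libraries. IZH2 rose in bre1Δ (0.66 ± 0.06, edgeR, adjusted p = 5.08e-09) and fell in WT (-0.30 ± 0.06, adjusted p = 0.000293) and in set2Δ (-0.25 ± 0.07, adjusted p = 0.0032). It was higher in bre1Δ than in WT at day 4 (0.89 ± 0.06, edgeR, adjusted p = 1.85e-11). Its lower values in set2Δ at day 1 (-0.28 ± 0.07) and day 4 (-0.23 ± 0.07) turned to 0.0827 and 0.0241 under scaling by library size only. The value of day 4 was not past the threshold by upper quartile (-0.14, edgeR, adjusted p = 0.0771) or with only the libraries compared (-0.12, 0.169).

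IZH4 (YOL101C, chromosome XV, 126982 to 127920, minus strand) was the member with the fewest reads, at 35 to 903 counts per library. WT held 7.85, 7.39 and 11.6 CPM at day 1 and 10.3, 9.81 and 10.7 CPM at day 4, and set2Δ held 7.25, 8.3 and 6.29 CPM and 4.22, 5.48 and 4.6 CPM. In bre1Δ the values were 19.9, 20.9 and 23.9 CPM at day 1 and 31.5, 31.7 and 29.4 CPM at day 4, above every library of the other strains. IZH4 was higher in bre1Δ than in WT by 2.42-fold at day 1 (1.28 ± 0.14, edgeR, adjusted p = 4.34e-08) and 3-fold at day 4 (1.59 ± 0.13, adjusted p = 1.72e-10). In set2Δ it was lower at day 4 (-1.08 ± 0.16, edgeR, adjusted p = 4.13e-06). At day 1 the set2Δ value was -0.29 ± 0.15 (edgeR, adjusted p = 0.09), past the threshold without replicate 2 of WT (0.0197) or of set2Δ (0.0404). Between the days IZH4 rose in bre1Δ (0.51 ± 0.12, edgeR, adjusted p = 0.000657) and fell in set2Δ (-0.59 ± 0.17, adjusted p = 0.00448). Its value in WT was 0.20 ± 0.14 (adjusted p = 0.203), and it passed the threshold without replicate 3 of day 1, the highest library of that group (0.43, adjusted p = 0.00689).

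Counted together, 7 to 10 of the 10 zinc genes were past the threshold of 0.05 in each of 11 comparisons, beside 71.6% to 86.4% of all genes tested, so the number called is near the background. Between day 1 and day 4 in WT, 7 rose and 2 fell, where 77.7% of all genes tested were called, 37.2% higher and 40.5% lower. The median change of the members was 0.52, against -0.02 over all genes tested. For set2Δ, 3 rose and 4 fell (where 71.6% of all genes tested were called, 34.3% higher and 37.3% lower), with a median of -0.03 against -0.03. In bre1Δ 7 rose and 1 fell (where 76.4% of all genes tested were called, 37.9% higher and 38.4% lower), with a median of 0.22 against -0.02. The members that rose in all 3 strains were ZRT1, ZRT3 and ZAP1. IZH2 fell in WT and set2Δ and rose in bre1Δ, and IZH3 rose in WT and bre1Δ and fell in set2Δ.

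**Figure D4:**
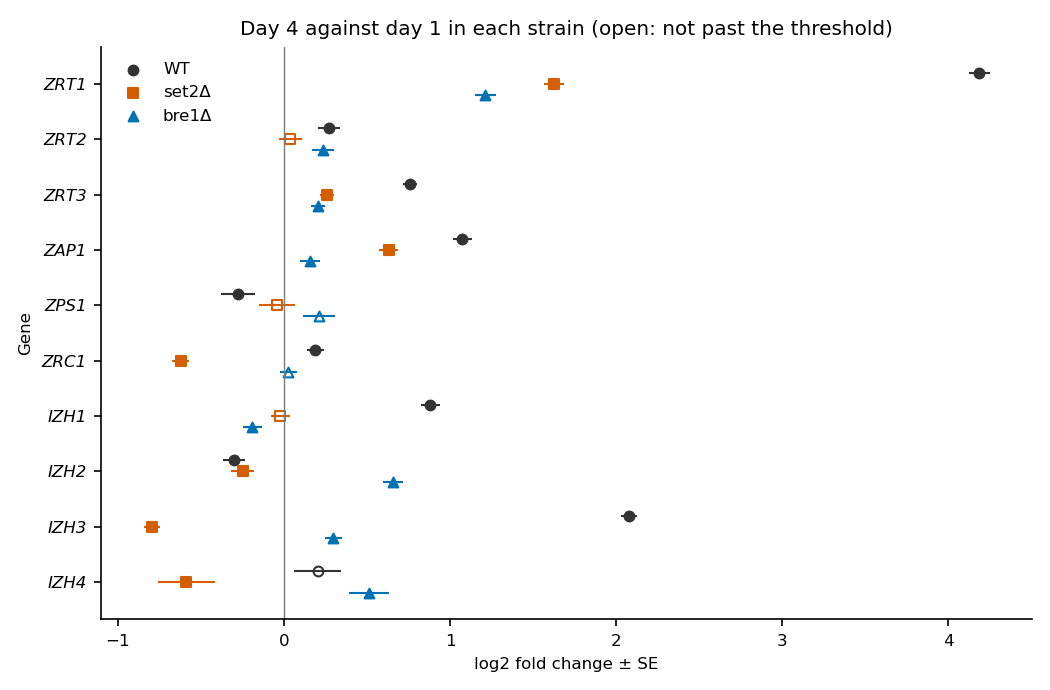
Log2 fold change of day 4 against day 1, with its SE, for the 10 zinc genes in WT, set2Δ and bre1Δ, where open symbols did not pass the threshold. ZRT1 lies at 4.19 in WT, 1.63 in set2Δ and 1.21 in bre1Δ, and IZH3 at 2.08, -0.80 and 0.30.

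Against WT at day 1, 4 members were higher and 3 lower in set2Δ (where 77.4% of all genes tested were called, 37.9% higher and 39.5% lower), with a median of 0.02 against -0.01 over all genes. At day 4, 1 member, ZAP1, was higher and 7 were lower (where 78.7% of all genes tested were called, 34.7% higher and 44.0% lower), with a median of -0.53 against -0.10. In bre1Δ 4 members were higher and 3 lower at day 1 (where 71.6% of all genes tested were called, 35.8% higher and 35.8% lower), with a median of -0.08 against 0.02. At day 4, 3 were higher, namely ZPS1, IZH2 and IZH4, and 7 lower (where 86.4% of all genes tested were called, 44.8% higher and 41.6% lower), with a median of -0.26 against 0.04. These comparisons share their WT libraries. The TMM factors of the WT libraries (0.857 to 0.892) were all below those of the deletion libraries (1.03 to 1.14), and scaling by library size only raised the median of all genes by 0.26 to 0.36 in the 4 comparisons with WT. Under it 6 members were higher and 0 lower in set2Δ at day 1, beside 3793 higher and 1327 lower of all genes tested. At day 4 the members in set2Δ split into 2 and 6, beside 2980 and 1933 of all genes. In bre1Δ the members split into 7 and 0 at day 1, beside 3606 and 1214 of all genes. At day 4 they split into 4 and 3, beside 3401 and 2071.

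**Figure D5:**
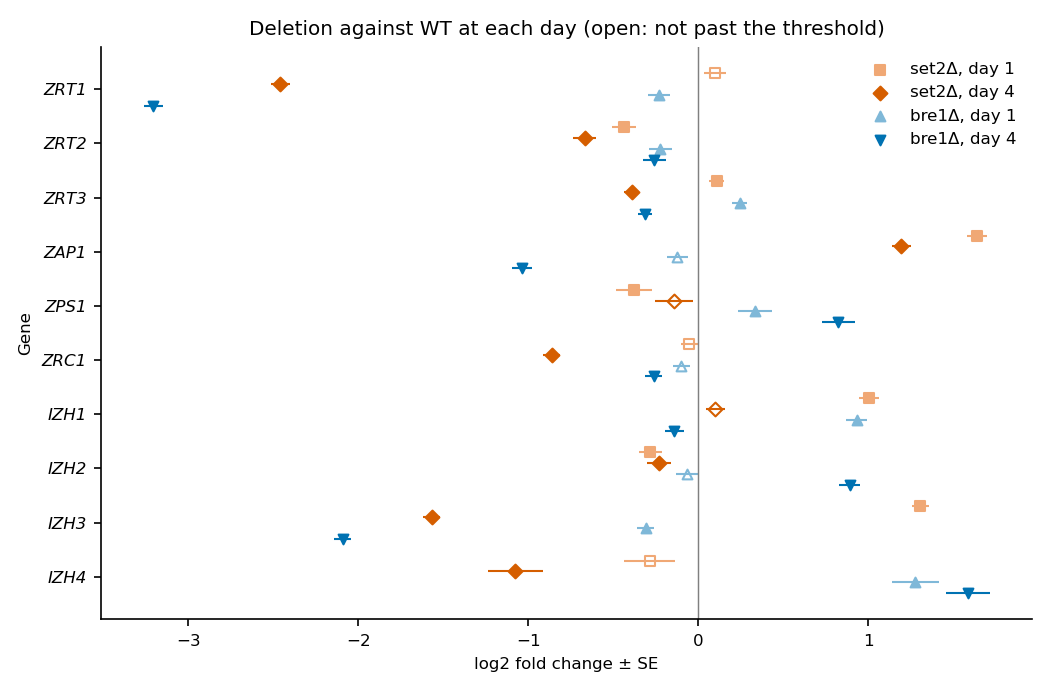
Log2 fold change of each deletion against WT, with its SE, for the 10 zinc genes at day 1 and day 4, where open symbols did not pass the threshold. ZAP1 lies at 1.64 and 1.19 in set2Δ and at -1.04 in bre1Δ at day 4, and ZRT1 at -2.46 and -3.21 at day 4.

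The deletions differed from each other in 8 members at day 1 (where 79.4% of all genes tested were called, 39.4% higher and 40.0% lower) and 9 at day 4 (where 84.1% of all genes tested were called, 42.5% higher and 41.6% lower). At day 1 the calls of ZRT2, ZRT3 and IZH2 were lost under scaling by library size only (edgeR, adjusted p = 0.0606, 0.182 and 0.0667). Those of ZRT2 and ZRT3 were also lost by upper quartile (edgeR, adjusted p = 0.0520 and 0.127). The widest gaps at day 4 were in IZH4, higher in bre1Δ (2.66 ± 0.15, edgeR, adjusted p = 7.08e-13), and in ZAP1, lower in bre1Δ (-2.23 ± 0.06, adjusted p = 4.72e-18). At day 1 ZAP1 (-1.76 ± 0.06), IZH3 (-1.61 ± 0.05) and IZH4 (1.56 ± 0.14) differed by more than 2-fold in edgeR (adjusted p = 2.92e-16, 1.1e-16 and 1.18e-09).

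The change between the days was itself compared between strains by the interaction term of the fit. In set2Δ it differed from WT in 8 members, each with a more negative change than in WT (where 72.7% of all genes tested were called, 34.8% higher and 37.9% lower). In bre1Δ it differed in 8 members, 6 more negative and 2 more positive (where 76.9% of all genes tested were called, 40.0% higher and 36.9% lower). As deletion minus WT on the log2 scale, the rise of ZRT1 differed by -2.56 ± 0.08 in set2Δ (edgeR, adjusted p = 4.09e-16) and -2.97 ± 0.09 in bre1Δ (adjusted p = 7.51e-17). For IZH3, the difference was -2.87 ± 0.07 in set2Δ (edgeR, adjusted p = 4.32e-18) and -1.78 ± 0.07 in bre1Δ (adjusted p = 6.15e-15). The rise of ZAP1 was also smaller in set2Δ (-0.44 ± 0.08, edgeR, adjusted p = 4.31e-05) and bre1Δ (-0.92 ± 0.08, adjusted p = 2.93e-09). IZH2 had a more positive change in bre1Δ than in WT (0.96 ± 0.09, edgeR, adjusted p = 4.81e-09).

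Per gene length, ZRT1 went from a minor to the most abundant transcript of the set in WT. The authors' FPKM values, which divide by gene length and library total, put it at 24.3 ± 2.03 FPKM (SD, n = 3) at day 1, the eighth of the 10 genes, and at 445 ± 7.71 FPKM at day 4, the highest of them. The vacuolar loader ZRC1 was the highest member in the other 5 groups, with 155 ± 9.5 FPKM in WT at day 1 and 117 ± 1.67 FPKM in set2Δ at day 4. In set2Δ at day 4, ZAP1 came second with 114 ± 5.24 FPKM, and the 2 genes overlapped in their SD. In bre1Δ at day 4 the order was led by ZRC1 (178 ± 6.92 FPKM) and ZRT3 (115 ± 0.542 FPKM), and ZAP1 came last with 24.4 ± 0.591 FPKM.

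Other genes of zinc biology were listed by general knowledge of the pathway. Of 6 further transporters of zinc and other metals, 3 rose and 3 fell in WT, beside 37.2% and 40.5% of all genes tested. In set2Δ 3 rose and 1 fell, beside 34.3% and 37.3%, and in bre1Δ 4 rose and 0 fell, beside 37.9% and 38.4%. PHO84, a phosphate transporter that also carries zinc, rose in WT (3.65 ± 0.09) and was lower in both deletions than in WT at day 4 (-2.89 ± 0.09 in set2Δ and -2.92 ± 0.08 in bre1Δ). FET4, a low-affinity carrier of iron and zinc, rose in WT (1.48 ± 0.06) and bre1Δ (0.40 ± 0.05) and fell in set2Δ (-0.96 ± 0.06). COT1, the paralogue of ZRC1 in the vacuolar membrane, rose in bre1Δ (2.02 ± 0.12) and was higher there than in WT at day 4 (1.84 ± 0.12). At day 1 COT1 was lower in bre1Δ than in WT (-0.51, edgeR, adjusted p = 0.000895). That call was lost under scaling by library size only (-0.22, adjusted p = 0.112). In WT COT1 fell between the days, from 103 to 81.9 CPM by group means, and MSC2 fell from 58.2 to 44.9 CPM. YKE4, a zinc transporter of the endoplasmic reticulum, rose in WT (0.82 ± 0.09), set2Δ (1.23 ± 0.10) and bre1Δ (2.41 ± 0.10). ZRG17, whose product transports zinc into the endoplasmic reticulum together with Msc2 and whose 500 bases before the start hold an exact match to the Zap1 motif, fell in WT (-0.60 ± 0.06) and rose in set2Δ (0.62 ± 0.06) and bre1Δ (0.17 ± 0.05). At day 4 it was higher than in WT in both deletions (1.12 ± 0.06 in set2Δ and 1.42 ± 0.06 in bre1Δ).

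Of 19 further genes described as activated by Zap1, 7 rose and 8 fell in WT, with a median of -0.12. In set2Δ 6 rose and 10 fell (median -0.23), and in bre1Δ 7 rose and 8 fell (median -0.12). The shares of all genes that rose and fell were 37.2% and 40.5% in WT, 34.3% and 37.3% in set2Δ and 37.9% and 38.4% in bre1Δ. The medians of the list lie beside -0.02, -0.03 and -0.02 over all genes tested. UTH1, of the SUN family of cell wall proteins, had the largest change of the list in WT (3.07 ± 0.11) and fell in set2Δ (-1.08 ± 0.11). In bre1Δ its group mean went up, from 526 to 1013 CPM. ADE17, an enzyme of purine synthesis, had the largest change in set2Δ (2.53 ± 0.10), and PST1, a cell wall protein, in bre1Δ (2.42 ± 0.08). Within 500 bases of the start, 3 of the 19 held a match to the motif with at most 1 difference, namely DPP1, MCD4 and MNT2, and that of MCD4 was exact. DPP1, a phospholipid phosphatase, rose in bre1Δ (1.02 ± 0.06), and MCD4, an enzyme of GPI anchor synthesis, was higher in set2Δ than in WT at day 1 (1.57 ± 0.06). By group means, DPP1 went from 60.5 to 55.2 CPM in WT and 51.4 to 42.7 CPM in set2Δ between the days. MCD4 went from 28.1 to 20.9 CPM in WT, 83.6 to 65.1 in set2Δ and 34.9 to 39.3 in bre1Δ. MNT2 went from 83.0 to 66.2 CPM in WT, 134 to 109 in set2Δ and 70.9 to 42.3 in bre1Δ. Against WT at day 4, 6 of the 19 were higher and 8 lower in set2Δ, beside 34.7% and 44.0% of all genes, with UTH1 (-4.53 ± 0.12) and PIS1, for phosphatidylinositol synthase (-1.90 ± 0.07), at the head. In bre1Δ 8 were higher and 8 lower, beside 44.8% and 41.6%, led by UTH1 (-2.93 ± 0.11) and URA10, of pyrimidine synthesis (-1.66 ± 0.06). Under scaling by library size only these splits became 8 and 7 in set2Δ and 11 and 7 in bre1Δ. The split of all genes tested moved with it, from 2194 higher and 2778 lower to 2980 and 1933 in set2Δ. In bre1Δ that of all genes went from 2832 and 2629 to 3401 and 2071.

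ADH1 and ADH3, alcohol dehydrogenase genes that Zap1 is known to repress through upstream noncoding transcripts, both rose in WT (0.30 ± 0.09 and 1.81 ± 0.07), ADH1 not past the threshold by upper quartile (0.18, edgeR, adjusted p = 0.0771). In set2Δ ADH1 rose (1.11 ± 0.09) and the value of ADH3 was 0.12 ± 0.07, adjusted p = 0.119 (edgeR). In bre1Δ ADH3 rose (0.85 ± 0.07) and the value of ADH1 was 0.11 ± 0.09, adjusted p = 0.273 (edgeR). Against WT at day 4, ADH3 was lower in set2Δ (-1.86 ± 0.07) and bre1Δ (-1.19 ± 0.07), while ADH1 was higher in set2Δ (0.95 ± 0.09) and lower in bre1Δ (-1.62 ± 0.09). Both were already lower in bre1Δ at day 1, where ADH1 had a group mean of 967 CPM against 2613 CPM in WT. ADH3 was lower at day 1 in bre1Δ (-0.23, edgeR, adjusted p = 0.00528) and set2Δ (-0.18, adjusted p = 0.0217). Under scaling by library size only these values of ADH3 turned to 0.0663 and 0.19.

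The genes outside the list whose levels were most like those of ZRT1 were chosen by Pearson's r of log2(CPM + 1) over the 18 libraries, among 5446 genes with a mean of at least 10 CPM. The 18 libraries form 6 groups of 3, so r reflects the group means. They were MIX17 (0.990), RPI1 (0.984), YOR338W (0.980), HLJ1 (0.978), PCL5 (0.978). PCL5, for a cyclin of the kinase Pho85, had 2211 CPM in WT at day 4 and 119 to 429 CPM in the other groups. RPI1, a transcription regulator, had 285 CPM in WT at day 4 and at most 99.1 CPM elsewhere. For ZAP1 they were LYS4 (0.980), CUE3 (0.976), SNC1 (0.972), FIP1 (0.968), NRT1 (0.965). LYS4, for homoaconitase of lysine synthesis, had 112 and 153 CPM in set2Δ and 59 to 104 CPM in the other groups. Among the members themselves, the closest pairs by this measure were ZPS1 with IZH4 (0.90), ZRT1 with ZRT3 (0.90), ZPS1 with IZH2 (0.85) and IZH2 with IZH4 (0.85). ZAP1 with ZRT1 gave 0.37 and ZAP1 with ZPS1 -0.83.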

How the data were processed

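Polyadenylated RNA was sequenced on an Illumina NovaSeq, per the labels' protocols, and the authors deposited raw counts per gene and FPKM for 18 libraries in 6 groups of 3. The submitters' processing notes name FastQC 0.11.8, cutadapt 2.6, STAR 2.7.0b, HTSeq 2.0.2, R 4.2.0, DESeq2 1.36.0 and the build sacCer3. The annotation and the strand setting are not given in the sources used here. In the first WT library the gene length implied by the deposited FPKM lay within 2% of the R64 gene span for 99.9% of the 5370 genes with 100 counts or more. No member overlaps another annotated gene, and 0% of the 50-base windows of each occur elsewhere in R64. The 4 lines emptied in the count table were left out.

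A fit of the counts was made in R 4.3.3 by edgeR 4.0.16, after its filterByExpr had kept 6320 genes and dropped 517. It had TMM scaling and 1 mean per group. Quasi-likelihood F tests, two-sided, gave p values for 11 comparisons, with Benjamini-Hochberg adjustment across the 6320 genes and a threshold of 0.05. The common dispersion was 0.00387. The SE is the log2 fold change divided by the square root of F. The pipeline was run on simulated counts in which few genes changed, equally up and down, in WT at day 4 alone. That setting does not test the choice of scaling. Alternatives were DESeq2 1.42.0, limma 3.58.1 on log2(FPKM + 1) and log2(FPKM + 0.1), other scalings (for the pathway lists, chosen after seeing the data), no filter, only the libraries compared, the replicate number as a block, and leaving out each library.

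The members and lists were chosen with earlier results of these data known. The genes named from the pathway lists are mainly those with the largest changes in a comparison, and some with a motif match. Not every gene that was counted is named with its value. Also named are the 5 genes most like ZRT1 and the 5 most like ZAP1. Replicate numbers were checked as pairs: same-numbered libraries deviated together (r over 0.1 in all 3 pairs) in 2 of 9 comparisons, set2Δ at day 4 against day 1 and bre1Δ against WT at day 1, from the data alone, as the labels state no pairing. The labels give no batch or date. Intervals for single counts are not given, and depth limits IZH4 most.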

Additional observations from a re-analysis of the deposited data

Results flagged for a closer look

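The change from day 1 to day 4 differed between strains for 16 of 20 gene and strain combinations by the interaction term of edgeR. That share is near the background, as 72.7% of all genes tested were called for set2Δ and 76.9% for bre1Δ. Values are on the log2 scale as deletion minus WT. For set2Δ the differences were ZRT1 -2.56 ± 0.08 (adjusted p = 4.09e-16), ZRT2 -0.23 ± 0.10 (adjusted p = 0.0366), ZRT3 -0.50 ± 0.06 (adjusted p = 2.49e-07), ZAP1 -0.44 ± 0.08 (adjusted p = 4.31e-05), ZRC1 -0.81 ± 0.07 (adjusted p = 2.09e-09), IZH1 -0.90 ± 0.08 (adjusted p = 2.88e-09), IZH3 -2.87 ± 0.07 (adjusted p = 4.32e-18) and IZH4 -0.79 ± 0.22 (adjusted p = 0.0035). For bre1Δ they were ZRT1 -2.97 ± 0.09 (adjusted p = 7.51e-17), ZRT3 -0.56 ± 0.06 (adjusted p = 4.35e-08), ZAP1 -0.92 ± 0.08 (adjusted p = 2.93e-09), ZPS1 0.49 ± 0.14 (adjusted p = 0.00379), ZRC1 -0.16 ± 0.07 (adjusted p = 0.0436), IZH1 -1.07 ± 0.08 (adjusted p = 1.54e-10), IZH2 0.96 ± 0.09 (adjusted p = 4.81e-09) and IZH3 -1.78 ± 0.07 (adjusted p = 6.15e-15). The call of ZRT2 in set2Δ was lost in 6 of the 12 fits that left out a library, namely replicate 2 or 3 of WT at day 1 (adjusted p = 0.0872 or 0.0502), replicate 3 of WT at day 4 (adjusted p = 0.0762), replicate 2 of set2Δ at day 1 (adjusted p = 0.156) and replicate 1 or 3 of set2Δ at day 4 (adjusted p = 0.0799 or 0.0512). It was also lost in DESeq2 (adjusted p = 0.0903), by median of ratios (0.0737) and with only the libraries compared (0.0709, both edgeR). The call of ZRC1 in bre1Δ was lost in 8 of the 12 such fits, namely replicate 1 of WT at day 1 (adjusted p = 0.125), replicate 1 or 2 or 3 of WT at day 4 (adjusted p = 0.0887 or 0.0702 or 0.0559), replicate 2 or 3 of bre1Δ at day 1 (adjusted p = 0.182 or 0.0688) and replicate 1 or 2 of bre1Δ at day 4 (adjusted p = 0.0577 or 0.133). It was also lost under scaling by upper quartile (edgeR, adjusted p = 0.347) and with no filter on low counts (0.0587). IZH4 in bre1Δ, not past the threshold, passed it without replicate 2 of WT at day 1 (edgeR, 0.45, adjusted p = 0.036).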

How the results depend on the processing

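In each of the 11 comparisons the number of zinc genes past the threshold, and that of all genes, stayed within 1.5 times the value given under each alternative run. No library left out changed such a count by more. With 7 to 10 of the 10 members called from the start, their count could hardly rise by that factor. The count also takes no account of direction, so it says little about how stable the calls were. Directions of single genes depended on the scaling. The values that changed sign follow in the order of scaling by library size only, log2(FPKM + 1) and log2(FPKM + 0.1), which share the library total as their scale. In set2Δ against WT at day 1 they were 0.31, 0.31 and 0.31 for ZRC1, 0.0827, 0.0885 and 0.0913 for IZH2 and 0.0792, 0.0786 and 0.0885 for IZH4. In set2Δ against WT at day 4 they were 0.11, 0.11 and 0.11 for ZPS1 and 0.0241, 0.0131 and 0.0135 for IZH2. In bre1Δ against WT at day 1 they were 0.0628, 0.0639 and 0.0662 for ZRT1, 0.0713, 0.0675 and 0.0682 for ZRT2, 0.17, 0.17 and 0.17 for ZAP1, 0.19, 0.19 and 0.20 for ZRC1 and 0.23, 0.23 and 0.24 for IZH2. In bre1Δ against WT at day 4 they were 0.0066, 0.00204 and 0.00204 for ZRT2, 0.00367, 0.00205 and 0.00205 for ZRC1 and 0.13, 0.12 and 0.13 for IZH1. For day 4 against day 1 in set2Δ they were -0.0659, -0.0619 and -0.0626 for ZRT2. For the day effect of set2Δ minus WT they were -0.0585, -0.0754 and -0.0777 for IZH2. Some of these were past the threshold in the new direction under scaling by library size only (edgeR). They were ZRC1 in set2Δ at day 1 (adjusted p = 8.16e-06) and IZH1 in bre1Δ at day 4 (0.0416). In bre1Δ at day 1 they were ZAP1 (0.0134), ZRC1 (0.00164) and IZH2 (0.00662). By upper quartile ZRT2 was at -0.10 for day 4 against day 1 in set2Δ, ZRC1 at -0.00767 for day 4 against day 1 in bre1Δ and 0.0595 in set2Δ against WT at day 1, and ZRT2 at 0.0510 for the day effect of bre1Δ minus WT. IZH1 for day 4 against day 1 in set2Δ turned to 0.0112 in DESeq2 and 0.0122 by median of ratios. Leaving out 1 library at a time gave sign changes only in values not past the threshold, with ranges of -0.0885 to 0.0300 for ZPS1, -0.0215 to 0.12 for ZRT2 and -0.0584 to 0.0170 for IZH1 between the days in set2Δ, -0.00579 to 0.0783 for ZRC1 between the days in bre1Δ, -0.0139 to 0.0878 for the day effect of IZH2 in set2Δ minus WT and -0.0876 to 0.0260 for that of ZRT2 in bre1Δ. When replicate numbers entered as a block, no call of the 110 gene and comparison pairs changed, and 9 zinc genes were past the threshold in WT between the days, as without it. Same-numbered libraries had correlations of -0.22 to 0.39 in their deviations over 27 pairs. Scaling by upper quartile changed the split of all genes for day 4 against day 1 in set2Δ from 2168 higher and 2356 lower to 1668 and 3029, and by library size only those against WT became 3793 and 1327 (set2Δ, day 1), 2980 and 1933 (set2Δ, day 4), 3606 and 1214 (bre1Δ, day 1) and 3401 and 2071 (bre1Δ, day 4), from 2393 and 2497, 2194 and 2778, 2263 and 2261 and 2832 and 2629. The causes of these shifts were not tested.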
